A study of Mus musculus with 8 samples.

Results

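The genes described here are 9 transcripts of the mammary myoepithelium and of smooth muscle: Krt5, Krt14, Trp63, Oxtr, Acta2, Myh11, Mylk, Cnn1 and Tagln. They were taken by name from the 18193 genes that the arrays measured with a probe set of their own. A gene with several such probe sets was represented by the brightest, judged by mean signal over the 8 arrays. The arrays profiled cells sorted with an antibody to Cd11b, a surface protein of macrophages and of some other myeloid cells, from collagenase-digested mammary glands of female FVB mice. The 4 groups of 2 pools were MMTV-iFGFR1 transgenic mice after 48 hours of dimerizer, non-transgenic littermates after 48 hours, transgenic mice after 4 weeks and littermates after 4 weeks. The transgene is an inducible FGF receptor 1 (FGFR1) driven by the promoter of mouse mammary tumour virus (MMTV), mainly in mammary epithelium, and the dimerizer, a compound that joins and so activates the receptor, was given to both genotypes from the age of 6 weeks. Each pool joined RNA of 3 mice, so p-values measure the spread between pools and not between mice. For transgenic 4 weeks pool 2 the labels conflict: the description names non-transgenic mice, against 3 other labels that name the transgenic line, by which it was grouped.

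Mammary ducts have an inner luminal layer and an outer basal layer of myoepithelial cells. Myoepithelial cells are epithelial by lineage, with the keratins 5 and 14 and the transcription factor p63, and contractile by function, with smooth muscle actin, smooth muscle myosin and their regulators. Oxytocin released in suckling makes them contract and eject milk. The contractile genes are not specific to them: vascular smooth muscle, pericytes and activated fibroblasts use many of the same genes, largely under serum response factor (SRF) and its coactivators. Cd11b, the protein used for the sort, is not a marker of either layer. In such bulk samples, fewer cells of a type and less RNA per cell cannot be told apart.

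The arrays carried the markers of the labelled cell type. Csf1r, the receptor of the macrophage growth factor, had a signal of 68311 to 93065 on the 8 arrays and Adgre1, the F4/80 antigen, 9842 to 14627, and 9 of 10 macrophage markers lay above the array median on every array. Itgam, the gene of Cd11b, was above it on 7. The median signal of an array was 96.4 to 126.9 units. Without detection calls, a signal below that median cannot be told from absence. RNA quality, read as the ratio of 3' to 5' beta-actin signal, was 6.84 to 13.9 on 7 arrays and 37.0 on control 4 weeks pool 2. Fgfr1 gave 1150 to 1319 on the transgenic and 581 to 1853 on the control arrays, which does not check a transgene expressed in epithelium.

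Of the genes of basal identity, Krt5 lay above the array median on 4 of 8 arrays, Krt14 on 2 and Trp63 on 0. Krt5 (chromosome 15, 101707069 to 101712905, build GRCm38), the keratin of the basal layer of stratified and glandular epithelia, had a signal of 145 and 9.7 in the transgenic 48 hours pools, against 134 and 15.5 in the control 48 hours pools. At 4 weeks it had 158 and 67.6 in transgenic pools, against 25.3 and 572 in control pools. The control 4 weeks pools thus held the highest Krt5 signal of the series beside a low one, and transgenic and control pools overlapped at both times. The value of 572 came from the array with the actin ratio of 37.0, whose part in it was not tested.

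Krt14 (chromosome 11, 100203162 to 100207510) encodes the partner with which keratin 5 forms filaments. Like Krt5 it was higher in pool 1 than in pool 2 of 3 groups. In the control 4 weeks group Krt14 kept this order, whereas Krt5 was higher in pool 2. Krt14 gave 99.5 and 19.9 in transgenic 48 hours pools against 140 and 19.0 in control 48 hours pools, and 92.7 and 5.8 in transgenic 4 weeks pools against 95.4 and 41.1 in control 4 weeks pools. The groups overlapped at both times, and the first pool was the higher in each of the 4 groups. On control 4 weeks pool 2, where Krt5 was highest, Krt14 lay below the array median.

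Trp63 (chromosome 16, 25683763 to 25892088), which encodes p63, the transcription factor that basal epithelia depend on, lay below the array median on all 8 arrays. Its signal was 17.1 and 11.7 in transgenic 48 hours pools, against 94.8 and 31.4 in control 48 hours pools. At 4 weeks it was 62.2 and 80.9 in transgenic pools, against 82.9 and 88.7 in control pools. Both transgenic pools were below both control pools at each time, although at 4 weeks the gap was small. All of these values lie in the range where presence and absence cannot be separated.

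Oxtr (chromosome 6, 112473683 to 112491035), the oxytocin receptor through which milk ejection is triggered, was above the array median on 2 arrays, 1 of each genotype. It gave 58.2 and 142 in transgenic 48 hours pools against 112 and 86.1 in control 48 hours pools, and 91.2 and 71.2 in transgenic 4 weeks pools against 36.0 and 168 in control 4 weeks pools. The 2 transgenic pools enclosed the control pools at 48 hours, and the 2 control pools enclosed the transgenic pools at 4 weeks.

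Among the contractile genes, Acta2, Mylk and Tagln were measured above the array median, and Myh11 and Cnn1 were mostly not. Acta2 (chromosome 19, 34240336 to 34255585), the smooth muscle actin of the thin filament, had 2519 and 6805 units in transgenic 48 hours pools, against 3179 and 4593 in control 48 hours pools. At 4 weeks it had 3036 and 3960 in transgenic pools, against 3130 and 4003 in control pools. Every array was far above its median for Acta2, and the transgenic pools enclosed the control pools at 48 hours and lay interleaved with them at 4 weeks. Mylk (chromosome 16, 34745199 to 35002436), the kinase that phosphorylates the myosin light chain and so starts contraction, gave 1058 and 1421 in transgenic against 732 and 1228 in control pools at 48 hours, and 913 and 1242 in transgenic against 593 and 1092 in control pools at 4 weeks. Each transgenic Mylk value exceeded that of the control pool with the same number, while the groups overlapped. Mylk is also expressed outside smooth muscle, in endothelium among other tissues, as a long non-muscle form.

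Tagln (chromosome 9, 45929628 to 45936058), which encodes the actin-binding protein transgelin or SM22, lay above the array median on 7 arrays. It gave 187 and 478 in transgenic 48 hours pools against 247 and 128 in control 48 hours pools, and 56.3 and 361 in transgenic 4 weeks pools against 178 and 287 in control 4 weeks pools. The groups crossed at 48 hours, and at 4 weeks the transgenic pools enclosed the control pools. Myh11 (chromosome 16, 14194527 to 14292188), the smooth muscle myosin heavy chain, was above the array median only on transgenic 48 hours pool 2. Its signals were 8.0 and 115 in transgenic against 11.7 and 44.1 in control pools at 48 hours, and 53.9 and 90.5 in transgenic against 62.6 and 78.3 in control pools at 4 weeks. Cnn1 (chromosome 9, 22099221 to 22109221), the calponin that restrains actomyosin in differentiated smooth muscle, stayed between 5.6 and 27.4 on all arrays, below every array's median.

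**Figure D1:**
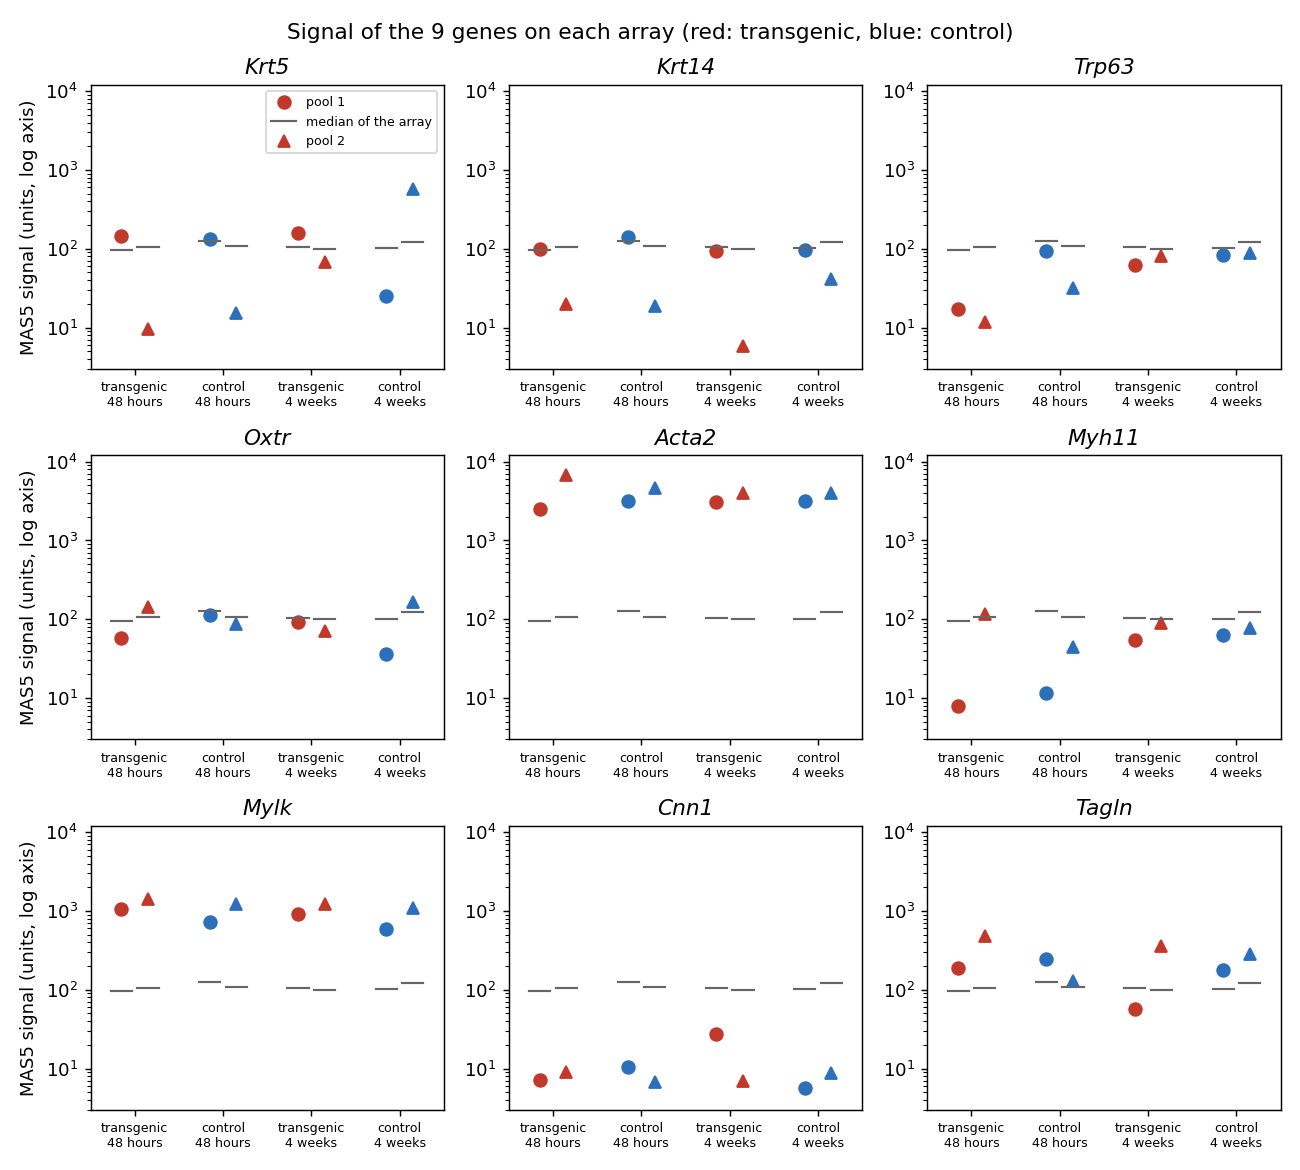
Signal of the 9 genes on each array in MAS5 units on a log axis, by group, with red for transgenic and blue for control, circles for pool 1, triangles for pool 2 and short grey lines for the median of that array. Acta2 (2519 to 6805) and Mylk (593 to 1421) lie above the median on all 8 arrays, Tagln on 7, and Trp63 and Cnn1 on none.

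The comparison of genotypes asked whether these genes differ once FGFR1 has been activated in the gland. No difference was detected. In limma, with p adjusted by Benjamini-Hochberg over the 18193 genes, 0 of 9 genes passed 0.05 at 48 hours, against a background of 0% of genes called, and 0 of 9 reached even an unadjusted p of 0.05, against 4.64%. At 4 weeks 0 of 9 passed, against a background of 0%, and 0 of 9 had an unadjusted p under 0.05, against 5.24%. Differences below are transgenic minus control on the scale of log2(signal + 30.8), which shrinks those of dim genes.

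The intervals are widest for the keratins and narrower for Acta2 and Mylk, and also for Cnn1, whose signals lay below every array's median. Krt5 had a log2 difference of −0.05 (SE 1.11) at 48 hours and −0.43 (SE 1.11) at 4 weeks. Its 95% interval at 4 weeks ran from −2.90 to 2.04, so that a 4-fold difference in either direction lies inside it. Krt14 had −0.18 (SE 0.80) and −0.50 (SE 0.80), and Oxtr −0.06 (SE 0.62) and −0.05 (SE 0.62). Acta2 had 0.12 (SE 0.40) at 48 hours, with an interval of −0.77 to 1.00, and −0.03 (SE 0.40) at 4 weeks, with an interval of −0.92 to 0.86. For Acta2 a difference close to 2-fold in either direction thus lies within or at the edge of these intervals.

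Mylk had log2 differences of 0.36 (SE 0.36) at 48 hours and 0.39 (SE 0.36) at 4 weeks, and Tagln 0.66 (SE 0.72) and −0.48 (SE 0.72). Myh11 had 0.42 (SE 0.65) and 0.01 (SE 0.65), and Cnn1 −0.02 (SE 0.36) and 0.31 (SE 0.36). Trp63 had −0.97 (SE 0.50) at 48 hours, the lowest of the 9, and −0.19 (SE 0.50) at 4 weeks. At 48 hours 4 of the 9 genes were on the positive side, and their median was −0.02 beside −0.00042 over all genes tested. At 4 weeks 3 had a positive difference, with a median of −0.05 beside −0.04 over all genes. Groups that did not overlap were found for 1 of 9 genes at each time, Trp63 in both cases, with the transgenic pools below. Over all genes the share was 34.6% at 48 hours, made up of 16.8% with the transgenic pools above and 17.8% with them below, and 32.6% at 4 weeks, made up of 14.3% above and 18.3% below.

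**Figure D2:**
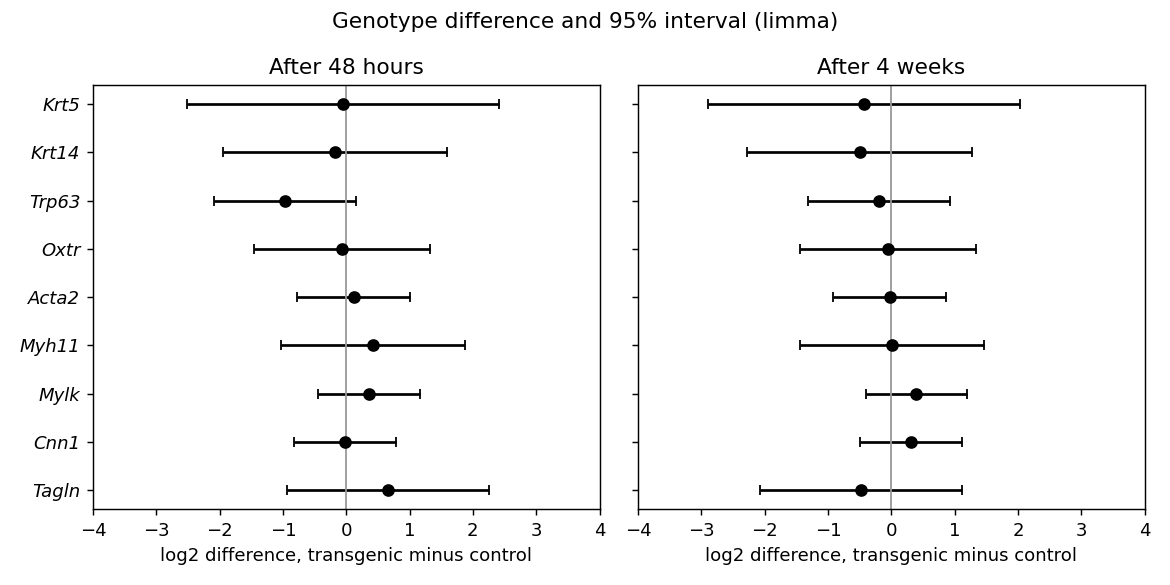
Log2 difference of transgenic minus control pools for each gene, with 95% intervals from limma, at 48 hours and at 4 weeks. All 18 intervals include 0. They run from the narrow ones of Mylk, Cnn1 and Acta2 to that of Krt5, which spans −2.52 to 2.42 at 48 hours.

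Over both times together, Trp63 had a log2 difference of −0.58 (SE 0.36) and Mylk of 0.37 (SE 0.25), with limma's adjusted p = 0.954 for each. Between pools of the same number, the Mylk difference was 0.51 and 0.21 at 48 hours and 0.60 and 0.18 at 4 weeks, and that of Trp63 was −1.39, −0.55, −0.29 and −0.10. These 2 of 9 genes kept one direction in all 4 pairs, against 13.7% of all genes, made up of 6.04% with the transgenic pools above and 7.62% with them below. For Trp63 this follows from groups that did not overlap at either time and is no further result. Neither gene passed the test, at a background of 0% of genes called over both times. At an unadjusted p under 0.05, 0 of 9 genes were called over both times, against 4.95%. The test of whether the genotype difference itself changed between the times called 0 of 9 genes, at a background of 0%, and 0 of 9 at an unadjusted p under 0.05, against 4.83%.

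The time comparisons asked what changed from 48 hours to 4 weeks of dimerizer within a genotype, during which the mice also aged. In transgenic pools 0 of 9 genes passed, against a background of 0%, and 1 of 9 had an unadjusted p under 0.05, against 2.72%. That gene was Trp63, with a log2 difference of 1.18 (SE 0.50) and limma's adjusted p = 1.00. Its transgenic 4 weeks pools both lay above its transgenic 48 hours pools, as the only one of the 9, against 29.6% of all genes whose transgenic pools did not overlap between the times. In the second Trp63 probe set the transgenic pools overlapped, at 70.1 and 20.7 at 48 hours and 66.7 and 37.0 at 4 weeks. In control pools 0 of 9 passed, against 0.0055% of genes, and 0 of 9 had an unadjusted p under 0.05, against 6.32%. Myh11 was the 1 of 9 genes whose control pools did not overlap between the times, with both 4 weeks pools above both 48 hours pools, against 32% of all genes. Its log2 difference was 0.84 (SE 0.65), on signals below the array median.

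A difference between pools ran through several contractile genes. Acta2 was higher in pool 2 than in pool 1 of every group, by 2.70-fold in transgenic 48 hours, 1.45-fold in control 48 hours, 1.30-fold in transgenic 4 weeks and 1.28-fold in control 4 weeks pools. Mylk was higher in pool 2 by 1.34-, 1.68-, 1.36- and 1.84-fold in the same order of groups, and Myh11 was also higher in each. This held for 3 of 9 genes, against 7.77% of all genes, and was counted after the values had been seen. The reverse, pool 2 below pool 1 in all 4 groups, held for Krt14 alone, against 8.03%. In the dimmer probe sets of Acta2, Mylk, Myh11 and Krt14 neither order held in all 4 groups. The labels do not say whether pools of one number shared a day or a batch.

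The highest signals of 4 of the 5 contractile genes fell on 1 array, which was noticed after the values had been seen. Transgenic 48 hours pool 2 had the highest signal of Acta2, Mylk, Tagln and Myh11, that is of 4 of 9 genes, while 9.81% of all genes were highest on that array. Cnn1, the fifth, was highest on transgenic 4 weeks pool 1, at 27.4. Among Krt5, Krt14 and Trp63, 0 were highest there, while 5 of 15 genes of basal adhesion, Itga6, Lamb3, Dst, Jag1 and Id4, were. Krt5 on that array, at 9.7, was the lowest of the series, Trp63 at 11.7 likewise, and Krt14 gave 19.9. Krt5 and Oxtr were highest on control 4 weeks pool 2, as were 18.6% of all genes, and Krt14 and Trp63 on control 48 hours pool 1, as were 17.0%.

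Summed markers of some other cell types of the gland had the order of pools seen in Acta2, Mylk and Myh11. The summed signal of 8 pericyte markers was 3293 and 10886 units in transgenic 48 hours pools against 2706 and 6155 in control 48 hours pools, and 3223 and 5008 in transgenic 4 weeks pools against 3378 and 7344 in control 4 weeks pools. Like Acta2 it was higher in pool 2 of every group and highest on transgenic 48 hours pool 2. Rgs5 had the highest signal of the 8 markers in pool 2 of every group. Rgs5, a regulator of G protein signalling typical of pericytes, gave 971 and 6281 in transgenic against 1119 and 2556 in control pools at 48 hours, and 816 and 2061 in transgenic against 881 and 3817 in control pools at 4 weeks. Pool 2 exceeded pool 1 in all 4 groups for 4 of 8 pericyte markers, against 7.77% of all genes. These were Rgs5, Notch3, Abcc9 and Higd1b. Of the other defining markers, Cspg4 was lower in pool 2 of the control 48 hours and transgenic 4 weeks groups. Pdgfrb was lower in pool 2 of control 4 weeks alone. Kcnj8 was lower in pool 2 of both 4 weeks groups, and Mcam of transgenic 4 weeks alone. Of the 8, 4 lay above the array median on every array and 0 lay below it on all. Between genotypes 7 of 8 lay above 0 at 48 hours and 3 of 8 at 4 weeks, against 50.0% and 46.4% of all genes. At either time 0 had an unadjusted p under 0.05, against 4.64% and 5.24%.

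The summed signals of endothelial and adipocyte markers had the same order of pools. The 8 endothelial markers summed to 1790 and 4306 in transgenic against 1769 and 2263 in control pools at 48 hours, and to 2008 and 2825 in transgenic against 2146 and 2780 in control pools at 4 weeks. The 6 adipocyte markers summed to 12280 and 38816 in transgenic against 12676 and 21009 in control pools at 48 hours, and to 9021 and 22603 in transgenic against 11080 and 40764 in control pools at 4 weeks, a sum led by Fabp4, a fatty acid carrier of adipocytes that macrophages also express. Pool 2 exceeded pool 1 in all groups for 3 of 8 endothelial and 3 of 6 adipocyte markers, against 7.77% of all genes. Of the defining markers, Pecam1 was above the array median on 2 arrays and Cdh5 on 5. Pecam1 was lower in pool 2 than in pool 1 of every group except transgenic 48 hours, and Cdh5 of control 48 hours alone. Adipoq was lower in pool 2 of the control 48 hours and transgenic 4 weeks groups. How far RNA of pericytes, vessels or fat sets the signal of Acta2 and Mylk was not tested.

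Luminal, fibroblast and macrophage markers followed other orders. The 13 luminal markers summed to 7847 and 9325 in transgenic against 3082 and 3335 in control pools at 48 hours, and to 8182 and 4522 in transgenic against 11019 and 7402 in control pools at 4 weeks. At 48 hours both transgenic luminal sums lay above both control sums, while Krt5 and Krt14 overlapped. These values cannot decide whether luminal markers and basal keratins went together. Limma's intervals at 48 hours, −2.52 to 2.42 for Krt5 and −1.95 to 1.59 for Krt14, included the luminal markers' median log2 difference of 1.00. In pool 2 of both 48 hours groups, Krt5 and Krt14 also lay below the array median. Of the luminal markers, 7 were higher and 0 lower at an unadjusted p under 0.05 at 48 hours, against 1.96% and 2.68% of all genes. At 4 weeks 0 were higher and 2 lower, against 1.9% and 3.35%, with 10 of 13 below 0. At both times 0 passed adjusted over all genes. The 11 fibroblast markers ran from 74670 to 78069 in transgenic and from 39689 to 88288 in control pools at 48 hours, and from 68297 to 88540 in transgenic and from 58722 to 78813 in control pools at 4 weeks. The 10 macrophage markers summed to 246920 to 266017 in transgenic and 263770 to 313893 in control pools at 48 hours, and to 265745 to 288344 in transgenic and 271164 to 299848 in control pools at 4 weeks. For 0 of 13 luminal, 0 of 11 fibroblast and 0 of 10 macrophage markers was pool 2 the higher in all 4 groups. Over all genes the share was 7.77%.

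Skin and skeletal muscle, which can come along in dissection and share keratins or actins with the genes described, gave less signal in most of their markers. Of 8 skeletal muscle markers, 0 lay above the array median on all arrays. Acta1 was above it on 1 array and Ckm on 2, and the sum was 313 to 399 in transgenic and 455 to 677 in control pools at 48 hours, and 334 to 439 in transgenic and 619 to 633 in control pools at 4 weeks. Of 6 epidermal markers 2 lay above it on all arrays, Krt10 at 181 to 350 and Lor at 133 to 896, while Krt1, the partner of Krt10, lay below it on every array. The epidermal sum was 471 to 511 in transgenic and 817 to 1315 in control pools at 48 hours, and 611 to 1171 in transgenic and 777 to 1087 in control pools at 4 weeks, and its part in the Krt5 and Krt14 signals was not tested.

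**Figure D3:**
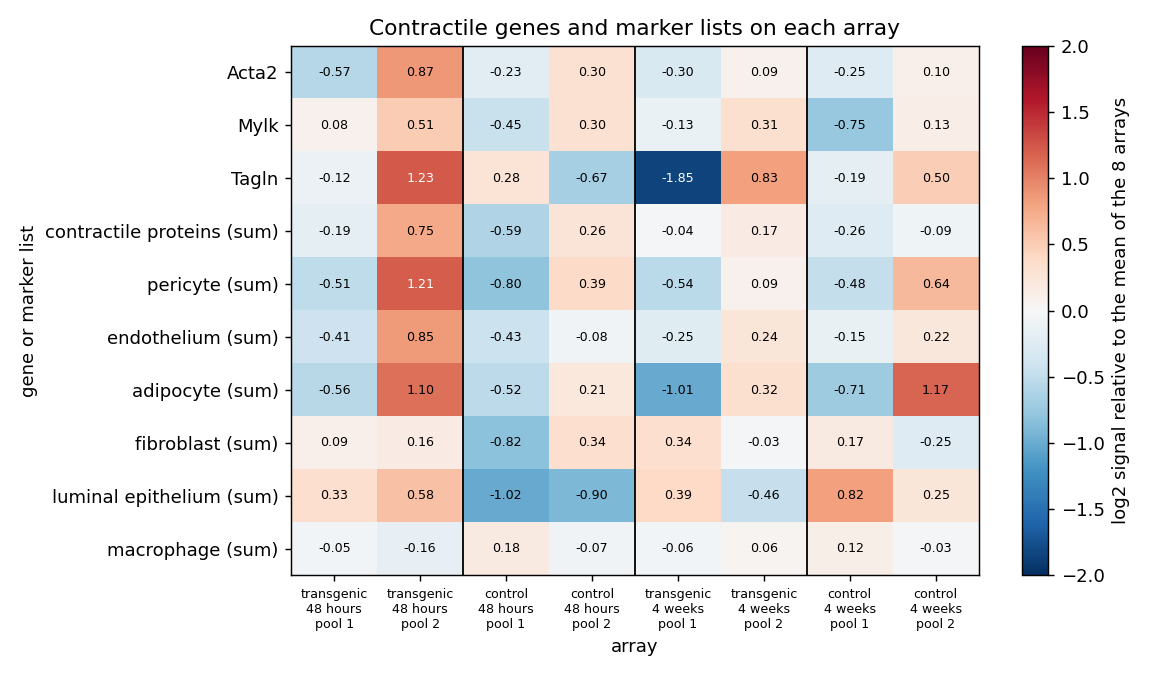
Log2 signal relative to the mean of the 8 arrays for Acta2, Mylk and Tagln and for the summed signal of 7 lists, 1 column per array with red above and blue below the mean. Acta2, pericyte, endothelial and adipocyte rows are higher in pool 2 than in pool 1 of every group (Acta2 0.87 and pericytes 1.21 on transgenic 48 hours pool 2), whereas the luminal row separates control 48 hours (−1.02 and −0.90) from the other arrays.

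Further contractile genes of smooth muscle and myoepithelium did not pass the test between genotypes either. Of 14 such genes, 11 had a genotype difference above 0 at 48 hours and 8 at 4 weeks, and 0 passed adjusted over all genes at either time. At an unadjusted p under 0.05, 0 were higher and 1 was lower at 48 hours, against 1.96% and 2.68% of all genes. The list's median log2 difference was 0.45 at 48 hours and 0.14 at 4 weeks, beside −0.00042 and −0.04 over all genes. The 1 lower gene was Actg2, the enteric smooth muscle actin, at 3.1 and 14.7 in transgenic against 43.5 and 35.7 in control pools at 48 hours, all below the array median. Myl9, the regulatory light chain that Mylk phosphorylates, gave 111 and 330 in transgenic against 79.2 and 135 in control pools at 48 hours, and 166 and 168 in transgenic against 160 and 278 in control pools at 4 weeks. Des, the intermediate filament protein desmin, gave 58.6 and 202 in transgenic against 150 and 19.8 in control pools at 48 hours, and 109 and 230 in transgenic against 130 and 231 in control pools at 4 weeks. Tpm1, a tropomyosin of the thin filament, had log2 differences of 0.55 (SE 0.41) and 0.23 (SE 0.41). For 5 of the 14, Myl9, Tpm2, Smtn, Synpo2 and Pln, pool 2 exceeded pool 1 in all groups, against 7.77% of all genes. The summed signal of the list was 3901 and 7503 in transgenic 48 hours pools against 2952 and 5325 in control 48 hours pools. At 4 weeks it was 4329 and 5015 in transgenic against 3711 and 4199 in control pools. Both transgenic sums thus lay above both control sums at 4 weeks, while the sums overlapped at 48 hours. The sum was not tested.

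Genes of basal adhesion and basal keratins were mixed. Of 15 measured, 10 lay above 0 at 48 hours, where the median was 0.37, and 6 at 4 weeks, where it was −0.04. Over all genes 50.0% and 46.4% lay above 0. At an unadjusted p under 0.05, 4 were higher and 1 lower at 48 hours, against 1.96% and 2.68% of all genes. At 4 weeks 0 were called in either direction, where 1.9% of all genes were higher and 3.35% lower. At either time 0 passed adjusted over all genes. Krt17, a keratin of basal and appendage epithelium, lay below the array median on all arrays at 3.0 to 25.6. Id4, a transcriptional regulator of basal mammary cells, gave 207 and 253 in transgenic against 73.2 and 85.7 in control pools at 48 hours, with limma's adjusted p = 0.972, and 172 and 138 in transgenic against 142 and 200 in control pools at 4 weeks. Lamb3, a chain of a basement membrane laminin, gave 56.4 and 124 in transgenic against 39.1 and 5.9 in control pools at 48 hours, and 50.4 and 47.1 in transgenic against 9.2 and 4.8 in control pools at 4 weeks. Col17a1, the collagen of hemidesmosomes, went the other way, at 5.8 and 15.4 in transgenic against 90.0 and 78.1 in control pools at 48 hours, and 10.2 and 75.3 in transgenic against 138 and 104 in control pools at 4 weeks. For both genes, named for their small p, the groups did not overlap at either time, and 7 of 8 signals lay below the array median. Of the 15 genes of the list, 7 did not overlap at 48 hours and 8 at 4 weeks, against 34.6% and 32.6% of all genes. Cdh3, the P-cadherin of basal cells, had its highest signal, 406, on control 4 weeks pool 2, the array on which Krt5 was highest, and its other 7 values ran from 42.1 to 271.

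The regulators of contractile genes were mostly above the array median, and 0 passed the test. Srf gave 394 to 896 and its coactivator genes Mrtfa and Mrtfb 316 to 534 and 2284 to 3552, above the median on all arrays, whereas Myocd, the coactivator of differentiated smooth muscle, was above it on 1 array. Of 7 genes in this group, 2 lay above 0 at each time, against 50.0% and 46.4% of all genes. The medians were −0.13 at 48 hours and −0.05 at 4 weeks, and 0 had an unadjusted p under 0.05, against 4.64% and 5.24%. The genes that carry the oxytocin signal to the contractile apparatus are expressed in most cells, and all 8 measured of this list lay above the median on every array. Gnaq, which couples the oxytocin receptor to phospholipase C, had log2 differences of −0.33 (SE 0.23) and −0.06 (SE 0.23), and Gna11, its close relative, 0.48 (SE 0.29) and −0.0037 (SE 0.29). The median of these 8 was 0.09 at 48 hours and 0.06 at 4 weeks. At an unadjusted p under 0.05 there were 0, against 4.64% and 5.24% of all genes.

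Genes with the most similar profile over the 8 arrays were sought for the 4 genes with a mean signal above the median of all values, among 11053 others. Likeness was measured as the root mean square difference of log2 values centred per gene, as a description. Acta2 was nearest to Ntn4, a netrin of basement membranes, at 0.10, to Rapgef5 at 0.12 and to Slco2a1, a prostaglandin transporter, at 0.14, against a median of 0.53 over the others. Mylk was nearest to Brd1 at 0.11, to Cebpa, a myeloid and adipocyte transcription factor, at 0.14 and to Fam110c at 0.15. Tagln was nearest to Fam107a at 0.32, to Gpd1, a glycerol phosphate dehydrogenase abundant in fat, at 0.34 and to Gucy1a1, a subunit of the nitric oxide receptor of smooth muscle, at 0.35. Krt5 was nearest to Jph2 at 0.42, to Ubxn11 at 0.58 and to Osbp2 at 0.60. Among themselves, Acta2 and Mylk differed by 0.33, Acta2 and Tagln by 0.62, and Acta2 and Krt5 by 1.46, where the median over all candidates was 0.53 for Acta2, 0.50 for Mylk, 0.82 for Tagln and 1.26 for Krt5.

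The probe sets of one gene did not always have the same order of arrays. The 9 genes had 20 probe sets with 1 symbol, of which 3 lay above the array median on all arrays and 11 on none. The Acta2 signal comes from a probe set whose suffix, in the manufacturer's naming, marks probes shared by several transcripts, so related actins may add to it. Its other 2 probe sets gave 4.0 to 80.8 units, and in each of them pool 2 was the higher in 2 of 4 groups. The second Mylk probe set gave 197 to 356, with pool 2 the higher in 2 groups, and the second of Trp63 gave 70.1 and 20.7 in transgenic against 7.0 and 14.1 in control pools at 48 hours, the opposite direction to the first. In the second Myh11 probe set pool 2 was the higher in 1 of 4 groups. In the other Krt14 probe sets it was the higher in 1 and in 2 groups. A further probe set names both Krt14 and Krt17 and was left out.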

How the data were processed

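Biotin-labelled RNA, amplified in 2 cycles, was hybridised to Affymetrix mouse 2.0 arrays, 8 in all. Signal intensities of probe sets were deposited, for which the submitters' processing notes name MAS5, with the version not given in the sources used here. They are linear and scaled per array: each array had a mean of 500 once 2% of values were trimmed at either end. Precision is limited by the number of arrays. Of 45101 probe sets, 34945 carried 1 gene symbol in the platform annotation, 932 several, 9160 none and 64 were controls.

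For each of 18193 genes the probe set of highest mean signal was used, without a filter on low values, so that all 9 genes were tested. A filter on signal above the array median on 2 arrays would have kept 6 of them. The offset of 30.8 in log2(signal + 30.8) is the 25th percentile of the table, and these log2 values were fitted with limma 3.58.1 in R 4.3.3, with 1 mean per group, a shared spread and a trend in the prior variance, leaving 4 residual degrees of freedom. Two-sided p-values were adjusted over all genes by the Benjamini-Hochberg method. The fit was tested on simulated data, with the outcome not given here. Coordinates are from RefSeq on GRCm38.p6.

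The genes, the 12 further lists and the tests were chosen with earlier results of these data known. All 9 genes are named, as are the nearest profiles. For each list, names were drawn from its 3 defining genes and up to 2 with the smallest p per genotype comparison. Not all genes so drawn are described, and Krt8, Krt18 and Epcam of the luminal list are among those left out. Other genes, such as the members of a pool count, were named after their values were seen. Alternatives were quantile normalization, other offsets, filters and probe sets, no trend, array weights, pool number as a block, the actin ratio as a covariate, the arrays of 1 time alone, and each pool left out.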

Additional observations from a re-analysis of the deposited data

How the results depend on the processing

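Of the 9 genes, 0 passed an adjusted p of 0.05 in limma in any of the 6 comparisons under any of the 21 alternatives. For the 22 differences of single genes given above, 408 values under alternatives kept the direction in 361 cases and turned it in 47, with 0 called and a lowest adjusted p of 0.595. The cause of the turns was not tested.

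Signs turned with quantile normalization for Krt5 (0.054), Oxtr (0.075) and Cnn1 (0.050) at 48 hours and Oxtr (0.050) at 4 weeks. Without an offset they turned for Oxtr (0.052) and Myh11 (−0.0035) at 4 weeks. With the actin ratio as a covariate they turned for Krt5 (0.46), Oxtr (0.32) and Cnn1 (0.0067) at 48 hours, and for Krt5 (0.69), Oxtr (0.79) and Acta2 (0.37) at 4 weeks. In the second-brightest probe set they turned at 48 hours for Krt14 (0.31), Trp63 (0.81), Oxtr (0.42), Acta2 (−0.60) and Mylk (−0.011), at 4 weeks for Krt14 (0.36) and Mylk (−0.18), and over both times for Trp63 (0.11) and Mylk (−0.10). With the mean of all probe sets they turned for Oxtr (0.18) and Acta2 (−0.55) at 48 hours.

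With 1 pool left out, a group rests on its other pool, assumed to vary like the rest. The 48 hours differences then ranged from −1.11 to 1.01 for Krt5, −1.07 to 0.71 for Krt14, −0.54 to 0.42 for Oxtr, −0.60 to 0.83 for Acta2, −0.54 to 1.37 for Myh11, −0.0016 to 0.72 for Mylk, −0.092 to 0.051 for Cnn1 and 0.051 to 1.28 for Tagln. At 4 weeks they ranged from −2.15 to 1.28 for Krt5, −1.38 to 0.37 for Krt14, −0.83 to 0.74 for Oxtr, −0.22 to 0.16 for Acta2, −0.25 to 0.27 for Myh11, −0.035 to 0.81 for Mylk, −0.0045 to 0.62 for Cnn1 and −1.56 to 0.61 for Tagln. Trp63 stayed negative, at −1.48 to −0.46 at 48 hours and −0.33 to −0.06 at 4 weeks. Since its groups did not overlap at either time, no other sign was possible when 1 pool was left out. Over both times the range was −0.84 to −0.33 for Trp63 and 0.16 to 0.59 for Mylk. For time it was 0.43 to 1.25 for Myh11 in control and 1.04 to 1.31 for Trp63 in transgenic pools. The signs of Trp63 and Myh11 here were likewise fixed by groups that did not overlap.

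Counts over all genes stayed near 0. The 1 gene called for time in control pools was F5, coagulation factor V, named after its values were seen. It became 0 genes with the offset at the median, the filter on the mean, no trend, array weights, the second-brightest probe set or the mean of probe sets, 2 with the actin ratio and 4 with the pool number as a replicate block. That block gave 2 genes for genotype at 4 weeks and 1 over both times. The arrays of 1 time alone gave 1 gene at 48 hours and 1 at 4 weeks. Without single pools the counts were 0 to 1 for genotype at 48 hours, at 4 weeks and for the difference between the times, 0 to 2 over both times, 0 to 3 for time in control and 0 to 1 in transgenic pools. From the labels, pools are known to share only a number, and whether they also shared a batch was not tested. Between groups, the pool difference correlated across 11054 genes at −0.11 to 0.19, genes not being independent replicates.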
